A study of Mus musculus with 9 samples.

Results

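Collagen genes were examined in RNA sequencing of cultured mouse pancreatic tumor cells. The members were the genes of the deposited transcript table whose symbol reads Col, a number, the letter a and a number, which gave 44 of 24493 genes. There were 3 libraries of escape e2 cells, 3 of escape e1 cells and 3 of parental cells. Per the labels, the cells of all 9 libraries are of C57BL/6 genetic background and were kept untreated in DMEM medium with 10% fetal bovine serum. The series title calls the escape cells immunotherapy-resistant, and the sources used here give neither the selection they went through nor whether e1 and e2 are single clones. Whether replicate libraries derive from independent cultures is not stated, and p-values then measure no more than the spread between these libraries, which may be technical.

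Collagens are secreted or membrane proteins built around a triple helix, in which glycine is 1 of every 3 amino acids. Fibrillar collagens (types I, II, III, V and XI among them) assemble into the cross-linked fibers of connective tissue, and type IV forms the sheet-like network of basement membranes under epithelia. Type VI makes beaded filaments, multiplexins (XV and XVIII) sit at basement membranes, type VII anchors those membranes to the tissue below, and FACIT collagens attach to the surface of fibrils. In pancreatic tumors the dense collagen matrix is largely a product of fibroblasts and stellate cells, while the carcinoma cells themselves are also able to make collagen.

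Levels are given as TPM, the transcript abundance relative to the library total that the authors deposited, which is scaled for transcript length and can therefore be compared between genes. A fold change is a difference of group means on the log2(TPM + 1) scale, followed by its standard error (SE), and it understates the change of genes near 0. It was tested with limma over all 12769 genes that reached 1 TPM in at least 3 of the 9 libraries, with Benjamini-Hochberg adjusted p-values and a threshold of 0.05. TPM keeps no read depth, so the depth behind each value is unknown. Between escape and parental cells most tested genes differed, 73.5% for e2 and 70.6% for e1, and 70.3% differed between e2 and e1. Escape e1 library 1 stood apart from the other e1 libraries, with a median absolute log2 gap of 0.18 to their mean, against 0.05 between those libraries. Parental library 1 stood apart less, at 0.13 against 0.06.

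All groups carried the epithelial keratins Krt8 and Krt18. Of 7 duct epithelium markers 6 averaged at least 1 TPM in e2 cells, 6 in e1 cells and 7 in parental cells. Those markers summed to 1714 to 1779 TPM in e2 cells, 1184 to 1223 TPM in e1 cells and 8053 to 9328 TPM in parental cells. Sox9, a transcription factor of duct cells, ran against that sum, at 39.2 to 43.6 TPM in e2 cells, 15.4 to 20.3 TPM in e1 cells and 4.80 to 8.56 TPM in parental cells. Epcam, an epithelial adhesion molecule, was below 1 TPM in all e2 and e1 libraries, against 114 to 171 TPM in the parental libraries. In the escape lines Krt8 and Krt18 made up most of the duct marker sum. Krt7 was at 26.3 to 29.9 TPM in e2, 0.835 to 1.16 TPM in e1 and 2081 to 2392 TPM in parental cells. Krt19 ranged over 68.1 to 75.9 TPM in e2, 24.1 to 57.5 TPM in e1 and 1684 to 2255 TPM in parental cells. Cdh1 was at 20.2 to 21.8 TPM in e2, 6.64 to 11.5 TPM in e1 and 223 to 232 TPM in parental cells. Of 8 fibroblast markers that are not collagens, 6 reached a mean of 1 TPM in e2 cells, 4 in e1 cells and 1 in parental cells. Their sum was 158 to 161 TPM in e2 cells, 34.7 to 48.7 TPM in e1 cells and 16.5 to 19.7 TPM in parental cells. Lum was listed at 0 in all 9 libraries, Fap also at 0 in e1 cells, and Dcn and Pdgfrb at 0 in parental cells. Of 4 pericyte markers only Cspg4 reached 1 TPM, in both escape lines, with sums of 15.0 to 17.3 TPM in e2 cells, 14.3 to 17.3 TPM in e1 cells and 0.189 to 0.565 TPM in parental cells. The 5 endothelial markers summed to less than 1 TPM in every library, with Emcn at 0 throughout. Cd3e of the 5 immune markers used was at 0 throughout, and these 5 summed to 5.14 to 5.77 TPM in e2 cells, 2.92 to 4.03 TPM in e1 cells and 1.58 to 2.09 TPM in parental cells. Cd68 was the only one of them above 1 TPM and made up nearly all of the sum, while Ptprc, the general leukocyte marker, was at 0 to 0.0245 TPM in e2 cells, 0 to 0.0103 TPM in e1 cells and 0.0469 to 0.110 TPM in parental cells. Of 4 acinar markers Cpa1 was at 0 throughout, and their sum was 15.7 to 17.3 TPM in e2 cells, 5.80 to 9.57 TPM in e1 cells and 2.05 to 3.73 TPM in parental cells. Cela1 carried most of it in every library, while Prss2 was at 0, 0.228 and 0.454 TPM in the e2 libraries and 0.404, 0.242 and 0.455 TPM in the e1 libraries, below the 0.798 TPM or more of parental libraries 2 and 3 (0.277 TPM in parental library 1). The part of these marker differences in the collagen results was not tested. In bulk RNA, fewer cells of a type and less RNA per cell cannot be told apart.

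Escape cells carried several times more collagen RNA than parental cells, and its makeup differed between the 3 groups. Collagen transcripts summed to 834 ± 13.1 TPM in e2 cells, 671 ± 19.3 TPM in e1 cells and 219.7 ± 16.7 TPM in parental cells (SD, n = 3 each). The summed ranges did not overlap between any of the groups. At 1 TPM or more stood 20 collagen genes in each e2 library, 16 to 17 in the e1 libraries and 10 to 11 in the parental libraries. The collagen with the highest level was Col18a1 in all 3 e2 libraries, Col1a1 in e1 library 1, Col1a2 in e1 libraries 2 and 3, and Col4a1 in all 3 parental libraries.

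**Figure D1:**
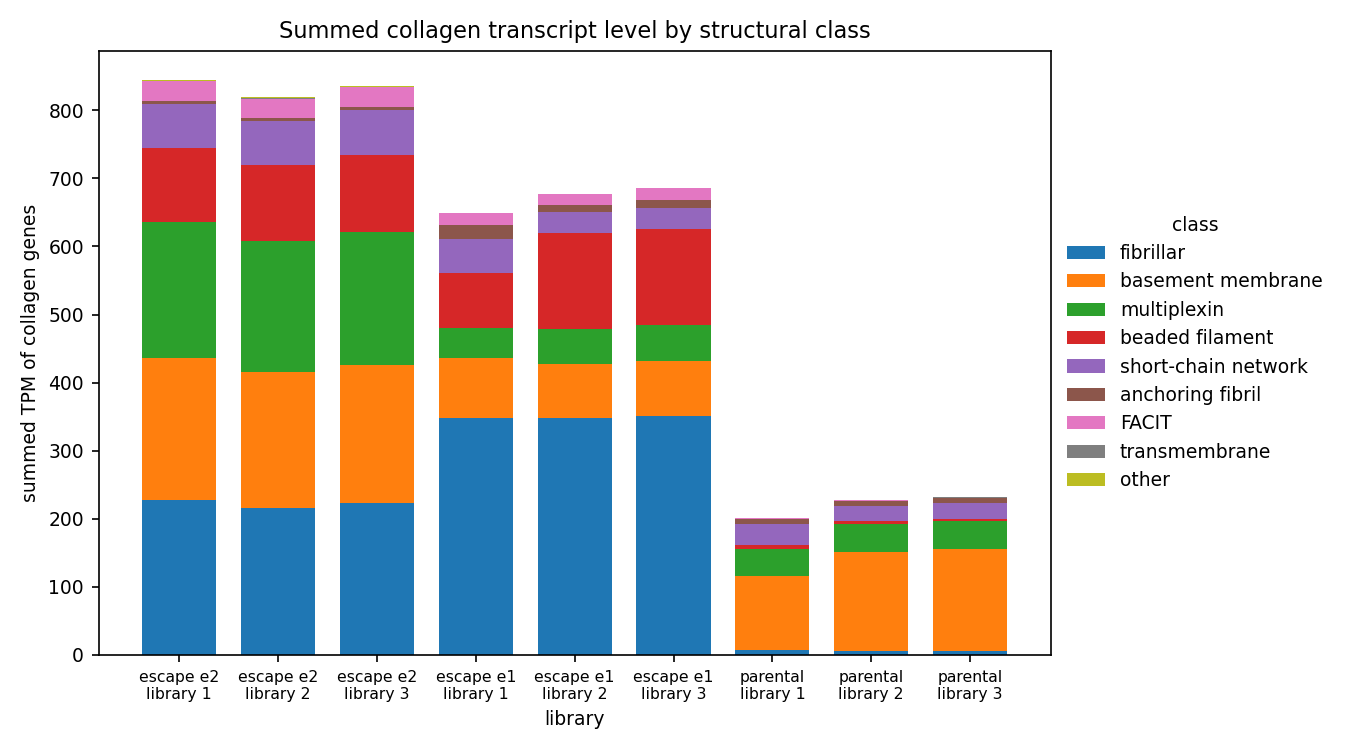
Summed TPM of the collagen genes in each library, stacked by structural class, with the escape e2 libraries left, e1 in the middle and parental right. Fibrillar collagens are the largest block in e1 cells (52.1% of collagen TPM on average), basement membrane collagens in parental cells (60.9%), and in e2 cells fibrillar, basement membrane and multiplexin collagens are of similar size.

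Of all collagen TPM, fibrillar collagens made up 26.6 ± 0.296% in e2 cells, 52.1 ± 1.39% in e1 cells and 2.93 ± 0.448% in parental cells (SD, n = 3 each). Basement membrane collagens made up 24.5 ± 0.157% in e2 cells, 12.3 ± 1.02% in e1 cells and 60.9 ± 5.80% in parental cells. The order of these classes in e1 cells was thus the opposite of that in parental cells, while in e2 cells their shares lay close together. Multiplexins took 23.4 ± 0.219% in e2 cells, 7.35 ± 0.419% in e1 cells and 18.4 ± 1.17% in parental cells. Beaded filament collagens held 13.4 ± 0.501% in e2 cells, 17.9 ± 4.84% in e1 cells and 2.30 ± 0.795% in parental cells. Short-chain network collagens accounted for 7.79 ± 0.0834% in e2 cells, 5.56 ± 1.82% in e1 cells and 11.7 ± 3.02% in parental cells. FACIT collagens, the anchoring fibril gene Col7a1 and the transmembrane collagens each stayed below 5% in every group.

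The 44 genes fell into 14 that averaged at least 10 TPM in some group, 7 at 1 to 10 TPM, 21 above 0 but below 1 TPM, and 2 (Col6a6 and Col9a1) listed at 0 in all 9 libraries. The first 21 were the ones tested. Of these, 10 had no parental library at 1 TPM, so they entered the test through the escape cells and could hardly have been lower there, and 1, Col27a1, entered through the parental cells alone. In e2 against parental cells 18 were higher, 2 lower and 1 did not pass, where 40.8% of all tested genes were higher and 32.7% lower (73.5% called). Their libraries did not overlap for 20 of the 21, beside 81.4% of all tested genes. In e1 against parental cells 16 were higher, 3 lower and 2 did not pass, beside 35.7% higher and 34.9% lower among all tested genes (70.6% called). Here 19 did not overlap, beside 71.4%. Both comparisons use the same parental libraries. Directly between e2 and e1 cells, 11 were higher in e2, 7 lower and 3 did not pass, beside 40.6% and 29.7% of all tested genes (70.3% called). In that comparison 15 did not overlap, beside 76.5%. Col5a2, Col15a1 and Col28a1 entered the test through the e2 libraries alone and could hardly have been lower there than in e1 cells. The shares of all tested genes given here also stand beside the class counts below.

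The median log2 fold change of the 21 was 2.24 for e2 against parental cells, where it was 0.07 over all tested genes. For e1 against parental cells it was 1.48, where all tested genes had 0.02, and for e2 against e1 it was 0.36, where they had 0.09. Col1a2, Col3a1 and Col5a3 were listed at 0 in every parental library, so no fold change against parental cells is given for them. Without them the medians of the other 18 were 2.10 for e2 against parental cells, 1.15 for e1 against parental cells and 0.60 for e2 against e1. Col1a1, Col5a2, Col11a1, Col15a1, Col6a3, Col12a1 and Col28a1, which also had no parental library at 1 TPM, stay among the 18. The medians against parental cells therefore still include genes that entered the test through escape cells. By pattern, 15 collagens were higher than parental in both escape lines, 1 (Col4a1) was higher in e2 and lower in e1, 1 (Col7a1) was lower in e2 and higher in e1, and 1 (Col27a1) was lower in both.

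**Figure D2:**
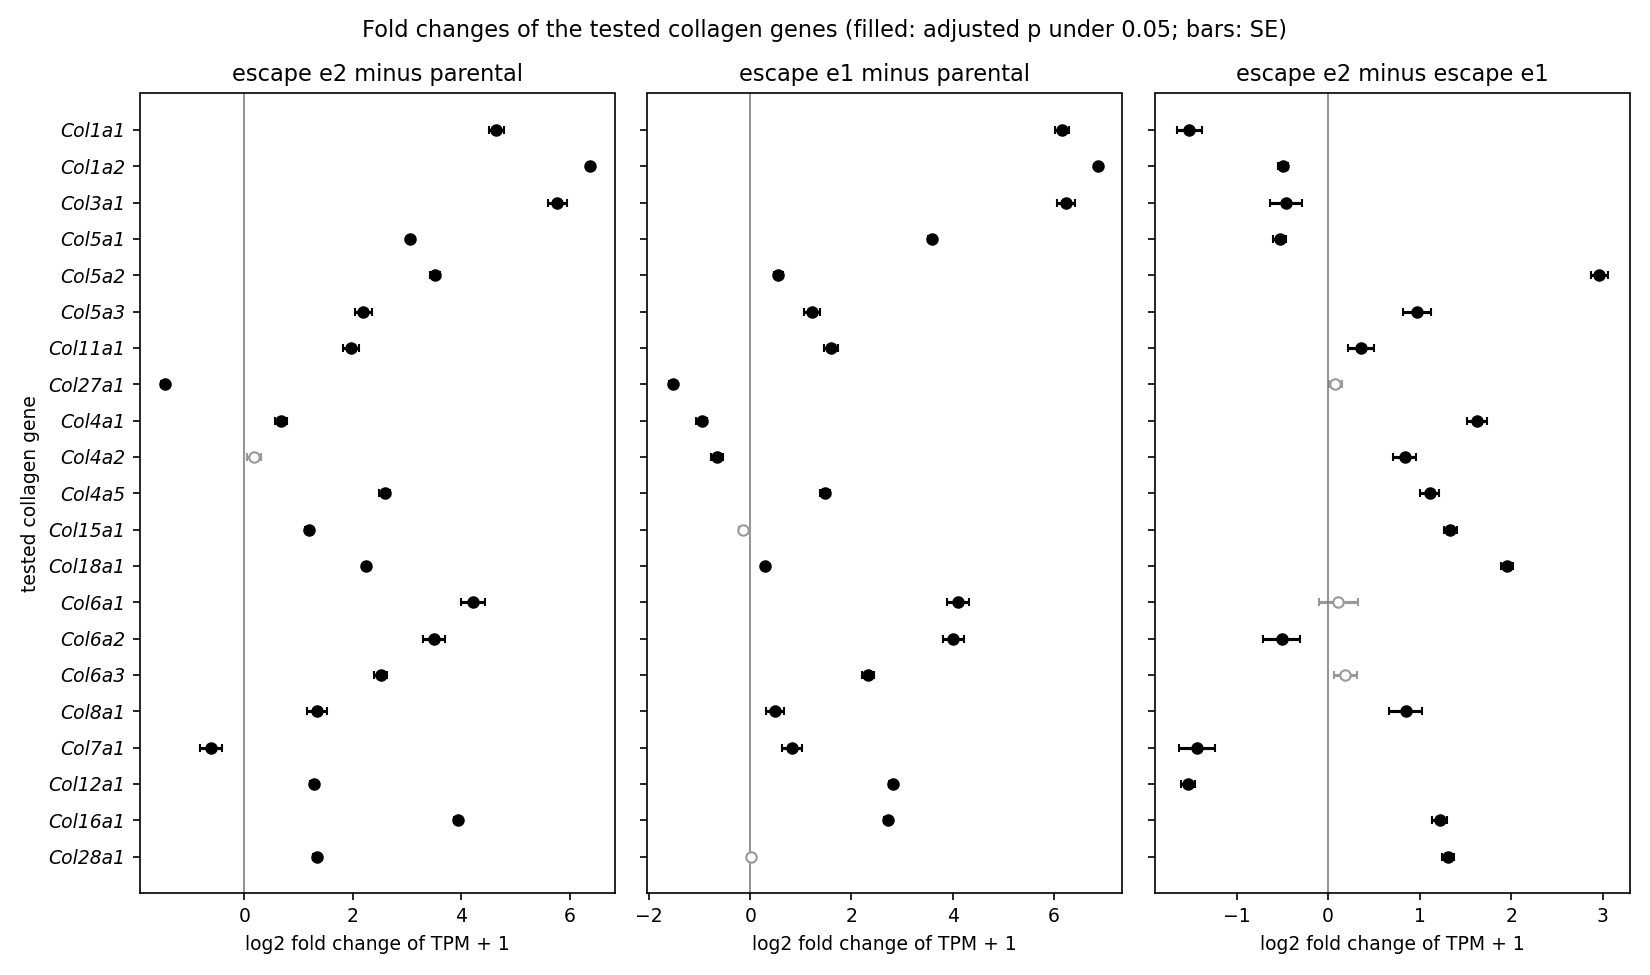
Log2 fold change on the log2(TPM + 1) scale for the 21 tested collagen genes, in 1 panel per comparison, with bars of 1 SE and filled points at an adjusted p under 0.05. Most points of e2 against parental and of e1 against parental lie above 0, and Col5a2, Col18a1 and Col4a1 are the rightmost points of e2 against e1. Points of Col1a2, Col3a1 and Col5a3 against parental cells, where they were listed at 0, depend on the pseudocount of 1 TPM.

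Fibrillar collagens were low in parental cells and prominent in both escape lines. Of 11 fibrillar genes 8 were tested: 7 were higher and 1 lower in e2 than in parental cells, and the same counts held for e1. Against e1 cells, e2 cells had 3 higher, 4 lower and 1 that did not pass. Of the 8, 6 had no parental library at 1 TPM and could hardly have been lower in escape cells. The repeat that builds their helix is visible in the gene itself, since exons of 54 bases, which hold 18 codons, made up 41.2 to 55.0% of the coding exons of the 11 fibrillar genes and 2.13 to 5.66% of those of the 6 basement membrane genes. The pattern was not limited to fibrillar genes, since the 9 FACIT genes had 6.15 to 44.4%. For each of the 5 most abundant fibrillar genes, the first exon of 54 bases in which glycine codons recur at 1 in every 3 positions is shown. The exons are from the GRCm38 genome with the GENCODE M21 annotation, 5′ to 3′ on the coding strand. Capitals mark these recurring glycine codons, which number 6 in each exon because the exons were chosen for them. Any other glycine codon is in lower case.
Col1a1, exon 8, chr11:94939904-94939957, plus strand: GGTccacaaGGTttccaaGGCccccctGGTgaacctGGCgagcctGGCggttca
Col1a2, exon 8, chr6:4515481-4515534, plus strand: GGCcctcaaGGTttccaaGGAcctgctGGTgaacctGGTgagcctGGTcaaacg
Col3a1, exon 6, chr1:45325360-45325413, plus strand: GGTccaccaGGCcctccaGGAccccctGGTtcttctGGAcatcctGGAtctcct
Col5a1, exon 15, chr2:27965251-27965304, plus strand: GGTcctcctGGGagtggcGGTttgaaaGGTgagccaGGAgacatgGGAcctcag
Col5a2, exon 6, chr1:45434892-45434945, minus strand: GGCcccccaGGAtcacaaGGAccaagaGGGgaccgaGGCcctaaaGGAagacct

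Col1a1 and Col1a2 encode the chains of type I collagen, the main fiber of connective tissue, normally joined as a pair of the α1 chain with a single α2 chain. Col1a1 (chr11:94936224-94953042 in GRCm38.p6, as are all gene positions) was at 35.6, 34.0 and 34.7 TPM in the e2 libraries, 132, 87.3 and 89.8 TPM in the e1 libraries and 0.540, 0.354 and 0.400 TPM in the parental libraries. The 3 groups did not overlap, with e1 highest, parental below 1 TPM, and e1 library 1 above the other e1 libraries. Its log2 fold change was 4.64 ± 0.14 (adjusted p = 2.77e-09) for e2 against parental cells and 6.16 ± 0.14 (adjusted p = 4.89e-10) for e1 against parental cells. In e2 against e1 cells it fell by 1.52 ± 0.14 (adjusted p = 8.86e-06). Col1a2 (chr6:4505618-4541543) was at 84.3, 78.7 and 83.0 TPM in the e2 libraries and 108, 119.9 and 119 TPM in the e1 libraries, and was listed at 0 in all 3 parental libraries. Every escape library held at least 78.7 TPM of it, and limma called both lines higher than parental (adjusted p = 4.61e-12 for e2 and 2.9e-12 for e1). The e2 libraries lay below all e1 libraries, with a log2 fold change of -0.49 ± 0.06 (adjusted p = 5.2e-05).

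Col3a1, the chain of type III collagen that accompanies type I in elastic tissues, lies at chr1:45311538-45349706. It was at 54.7, 53.0 and 53.4 TPM in the e2 libraries and 51.5, 89.0 and 89.1 TPM in the e1 libraries, and listed at 0 in all parental libraries. Both lines passed the test against parental cells (adjusted p = 3.17e-09 for e2 and 1.93e-09 for e1). The e2 range lay within the e1 range, where library 1 was low. The difference of e2 against e1, -0.46 ± 0.18 (adjusted p = 0.0417), lost its call in each of the 8 repeats that left out a library other than e1 library 1 (adjusted p = 0.0577 to 0.141). Without e1 library 1 it was -0.72, adjusted p = 7.97e-07.

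The regions around the start sites of Col1a2 and Col3a1 are shown because both genes were at 0 in parental cells and at 50 TPM or more in escape cells. They run from 250 bases before to 50 after the RefSeq start (GRCm38.p6), and capitals mark matches on either strand to the CCAAT box (CCAAT), the GC box (GGGCGG), the TATA box (TATAAA) and an E-box (CACCTG), none of which overlapped another match in the windows shown.
Col1a2, chr6:4505368-4505667, plus strand: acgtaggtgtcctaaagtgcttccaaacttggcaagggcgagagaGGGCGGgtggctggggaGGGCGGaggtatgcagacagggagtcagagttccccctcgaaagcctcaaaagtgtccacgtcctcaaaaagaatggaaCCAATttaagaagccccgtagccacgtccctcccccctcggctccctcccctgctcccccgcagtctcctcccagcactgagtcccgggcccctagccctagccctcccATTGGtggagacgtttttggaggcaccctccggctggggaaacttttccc
Col3a1, chr1:45311288-45311587, plus strand: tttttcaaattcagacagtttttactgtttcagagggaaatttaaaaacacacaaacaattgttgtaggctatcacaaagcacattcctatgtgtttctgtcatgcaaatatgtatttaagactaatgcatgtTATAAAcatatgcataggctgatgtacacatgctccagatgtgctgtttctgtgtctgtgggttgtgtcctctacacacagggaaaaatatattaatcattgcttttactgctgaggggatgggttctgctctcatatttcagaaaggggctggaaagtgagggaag
The window of Col1a2 held 2 matches to CCAAT and 2 to GGGCGG, and that of Col3a1 a single match to TATAAA. Over 38 promoter windows of 35 collagen genes, CCAAT was present in 34.2%, GGGCGG in 60.5%, TATAAA in 13.2% and CACCTG in 13.2%. Among all 32851 windows of the same length the shares were 37.4%, 35.7%, 13.6% and 20.2% in that order. A match describes the letters only.

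Type V collagen nucleates type I fibrils and controls their width. Its chain gene Col5a1 (chr2:27886381-28039510) was at 35.0, 32.5 and 33.5 TPM in the e2 libraries, 51.5, 47.4 and 48.3 TPM in the e1 libraries and 3.51, 2.96 and 3.03 TPM in the parental libraries. All 3 groups were apart, e1 above e2 and both far above parental. The log2 fold changes were 3.06 ± 0.07 (adjusted p = 4.31e-10) for e2 and 3.59 ± 0.07 (adjusted p = 1.89e-10) for e1, each against parental cells, and -0.53 ± 0.07 (adjusted p = 8.06e-05) for e2 against e1. Col5a2 (chr1:45374331-45503282), the partner chain, behaved otherwise. It had 10.6, 10.1 and 10.8 TPM in the e2 libraries, 0.690, 0.419 and 0.330 TPM in the e1 libraries and 0.00910, 0 and 0 TPM in the parental libraries. Only the e2 libraries exceeded 1 TPM, with a log2 fold change of 3.52 ± 0.09 (adjusted p = 1.34e-09) against parental cells and 2.97 ± 0.09 (adjusted p = 1.03e-08) against e1 cells. The e1 libraries were also above the parental ones, by 0.55 ± 0.09 (adjusted p = 0.000537). Col5a2 neighbours Col3a1 on chromosome 1, and in e1 cells Col3a1 stood at 51.5 to 89.1 TPM while Col5a2 stayed at 0.330 to 0.690 TPM.

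Less abundant fibrillar genes followed. Col5a3, the remaining type V chain, ranged over 3.38 to 3.91 TPM in e2 cells and 0.766 to 1.84 TPM in e1 cells and was listed at 0 in parental cells, and it was higher in e2 than in e1 by 0.97 ± 0.15 (adjusted p = 0.000318). Limma called it higher than parental in e2 (adjusted p = 9.06e-07) and in e1 (adjusted p = 6.56e-05). Col11a1, a type XI chain that forms the core of thin fibrils in cartilage and is also made in tumor stroma, ranged over 3.30 to 3.59 TPM in the e2 libraries, 1.94 to 3.51 TPM in the e1 libraries and 0.130 to 0.187 TPM in the parental libraries. It was higher than parental by 1.96 ± 0.14 (adjusted p = 1.2e-06) in e2 and 1.60 ± 0.14 (adjusted p = 5.73e-06) in e1. Its e2 and e1 ranges overlapped, and the difference of 0.36 ± 0.14 (adjusted p = 0.044) lost its call in each of the 8 repeats that left out a library other than e1 library 1 (adjusted p = 0.0606 to 0.155). Without e1 library 1 it was 0.55, adjusted p = 0.000156. Col27a1, a chain of cartilage and other connective tissue, went the other way, at 0.241 to 0.371 TPM in the e2 libraries, 0.194 to 0.255 TPM in the e1 libraries and 2.49 to 2.68 TPM in the parental libraries. It fell in both lines, at a log2 fold change of -1.46 ± 0.07 (adjusted p = 7.1e-08) in e2 and -1.54 ± 0.07 (adjusted p = 5.72e-08) in e1, and e2 and e1 did not pass the test of their difference (0.08 ± 0.07, adjusted p = 0.358). Col2a1, Col11a2 and Col24a1 stayed below 1 TPM in all libraries. The fibroblast markers, given above by their sums, also summed to more in the escape lines, though not each of them did. Pdgfrb, a platelet-derived growth factor receptor, was at 21.5 to 23.3 TPM in e2 cells and 14.2 to 25.8 TPM in e1 cells, and at 0 in parental cells. Fbln1, a matrix glycoprotein, was at 8.29 to 9.62 TPM in e2 cells, 13.9 to 19.3 TPM in e1 cells and 16.0 to 19.4 TPM in parental cells. Pdgfrb and Fbln1 made up most of the e1 sum. Pdpn was at 69.9 to 71.0 TPM in e2 cells. In e1 cells it was at 0.0453 to 0.0625 TPM, within the parental range of 0.0364 to 0.137 TPM. Thy1 was at 16.1 to 18.0 TPM in e2, 2.31 to 5.80 TPM in e1 and 0 to 0.0379 TPM in parental cells.

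**Figure D3:**
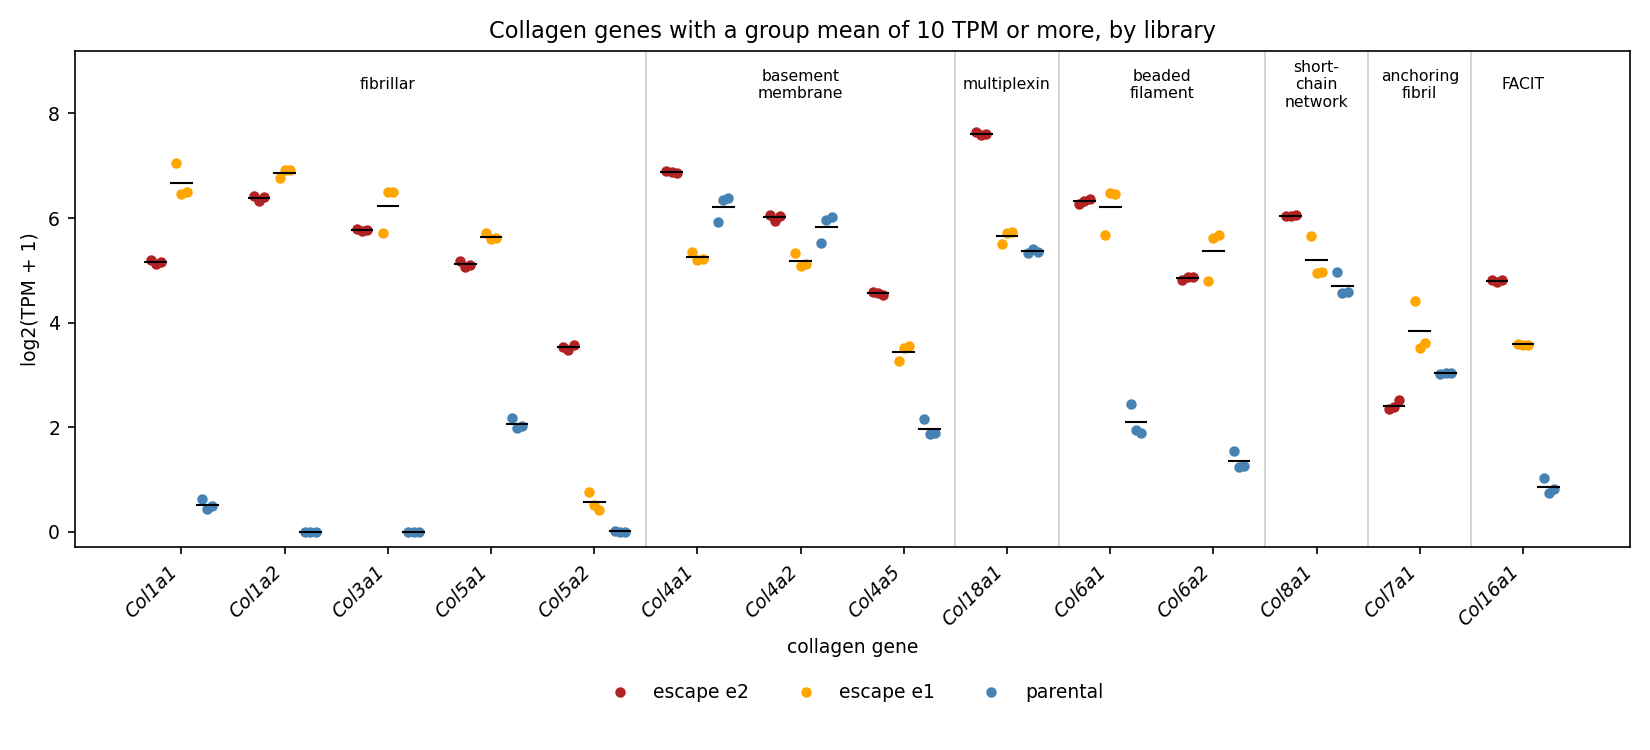
Level as log2(TPM + 1) of the 14 collagen genes that averaged at least 10 TPM in some group, arranged by class along the x axis, 1 point per library and a black line at the mean of each group, with escape e2 left, e1 in the middle and parental right for each gene. Col1a1, Col1a2, Col3a1 and Col5a2 are near or at 0 in parental cells, Col18a1 is highest in e2 cells at 190 to 198 TPM, and Col4a1 is lowest in e1 cells.

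Basement membrane collagens made a different picture, with e2 cells above e1 cells in each tested gene. Of 6 genes 3 were tested, and all 3 were higher in e2 than in e1. Against parental cells 2 were higher and 1 did not pass in e2, while 1 was higher and 2 were lower in e1. Col4a1 and Col4a2 encode the chains of the common type IV network, and lie head to head on chromosome 8 with start regions that share 78 bases (chr8:11312777-11312854). Both windows are shown because the genes were jointly lower in e1 cells. Each holds the shared bases, and 1 match to GGGCGG lies within them. The window of Col4a1 held 1 match to CCAAT and 1 to GGGCGG in all, that of Col4a2 1 to CCAAT and 3 to GGGCGG. Source, build and capitals are as above.
Col4a1, chr8:11312777-11313076, minus strand: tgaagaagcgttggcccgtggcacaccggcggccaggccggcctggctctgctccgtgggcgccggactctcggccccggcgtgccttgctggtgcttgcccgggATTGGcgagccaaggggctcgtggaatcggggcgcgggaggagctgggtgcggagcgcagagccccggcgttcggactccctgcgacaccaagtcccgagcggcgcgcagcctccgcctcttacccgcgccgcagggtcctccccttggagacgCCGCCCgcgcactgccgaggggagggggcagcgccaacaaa
Col4a2, chr8:11312555-11312854, plus strand: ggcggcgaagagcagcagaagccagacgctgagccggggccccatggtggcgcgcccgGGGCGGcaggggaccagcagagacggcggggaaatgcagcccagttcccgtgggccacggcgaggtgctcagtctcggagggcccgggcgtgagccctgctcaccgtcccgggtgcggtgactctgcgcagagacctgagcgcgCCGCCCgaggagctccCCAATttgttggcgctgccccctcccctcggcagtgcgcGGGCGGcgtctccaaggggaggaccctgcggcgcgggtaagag

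Col4a1 (chr8:11198423-11312889) was at 119, 116 and 116 TPM in the e2 libraries, 39.7, 35.8 and 36.1 TPM in the e1 libraries and 59.6, 80.3 and 82.5 TPM in the parental libraries. The groups did not overlap, with e2 highest and e1 lowest. Its log2 fold change was 0.67 ± 0.11 (adjusted p = 0.000413) for e2 against parental cells, -0.96 ± 0.11 (adjusted p = 3.49e-05) for e1 against parental cells and 1.63 ± 0.11 (adjusted p = 1.16e-06) for e2 against e1 cells. Col4a2 (chr8:11312805-11449287) was at 65.3, 60.6 and 64.5 TPM in the e2 libraries, 39.1, 32.7 and 33.8 TPM in the e1 libraries and 44.9, 61.3 and 64.1 TPM in the parental libraries. Here e2 and parental libraries overlapped, and their difference of 0.17 ± 0.13 (adjusted p = 0.232) did not pass, while e1 was below all other libraries. The difference was -0.66 ± 0.13 (adjusted p = 0.00104) for e1 against parental cells and 0.84 ± 0.13 (adjusted p = 0.000232) for e2 against e1 cells. The strand setting of the counting is not given and the annotated exons of the 2 genes overlap, so reads from the overlap cannot be told apart. Exons of Col5a1, Col15a1 and Col4a2 also overlap annotated antisense genes, with the same limit.

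Col4a5 (chrX:141475370-141689236), an X-linked chain of the network found in kidney and other specialised basement membranes, was at 22.9, 22.7 and 22.0 TPM in the e2 libraries, 8.59, 10.4 and 10.8 TPM in the e1 libraries and 3.46, 2.63 and 2.68 TPM in the parental libraries. All groups were apart, in the order e2, e1, parental. It was higher than in parental cells by 2.59 ± 0.10 (adjusted p = 1.72e-08) in e2 and 1.48 ± 0.10 (adjusted p = 9.95e-07) in e1, and higher in e2 than in e1 by 1.11 ± 0.10 (adjusted p = 9.28e-06). Its head-to-head neighbour Col4a6, and the remaining type IV genes Col4a3 and Col4a4, were below 1 TPM in every library. Of these the highest was Col4a4 at 0.497 to 0.643 TPM in e2 cells, 0.0768 to 0.131 TPM in e1 cells and 0.163 to 0.399 TPM in parental cells.

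The multiplexin Col18a1, whose C-terminal fragment is endostatin, an inhibitor of vessel growth, set the e2 line apart. Col18a1 (chr10:77052178-77166530) was at 198, 190.2 and 193 TPM in the e2 libraries, 44.6, 51.4 and 52.1 TPM in the e1 libraries and 39.2, 41.2 and 40.0 TPM in the parental libraries. The e2 libraries were far above the rest, and the e1 libraries lay above the parental ones without overlap. The log2 fold change was 2.24 ± 0.06 (adjusted p = 2.09e-09) for e2 against parental cells, 0.29 ± 0.06 (adjusted p = 0.00283) for e1 against parental cells and 1.96 ± 0.06 (adjusted p = 1.3e-08) for e2 against e1. Col15a1, the other multiplexin, was low, at 1.48 to 1.73 TPM in the e2 libraries, 0.0101 to 0.0450 TPM in the e1 libraries and 0.0881 to 0.217 TPM in the parental libraries. It was higher in e2 than in parental cells by 1.19 ± 0.07 (adjusted p = 4.13e-07) and than in e1 cells by 1.34 ± 0.07 (adjusted p = 3.18e-07). The e1 difference from parental, -0.15 ± 0.07 (adjusted p = 0.0962), did not pass, although the ranges did not overlap. It passed with a pseudocount of 0.1 TPM (-0.90, adjusted p = 0.0067) and in the authors' rlog values (-0.69, adjusted p = 0.00289).

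Type VI collagen, the beaded filament that links cells to the surrounding matrix, was higher in both escape lines than in parental cells. Of 6 genes 3 were tested, and all 3 were higher than parental in e2 and in e1. Col6a1 (chr10:76708792-76726044) was at 76.0, 79.3 and 81.1 TPM in the e2 libraries, 50.2, 88.4 and 86.7 TPM in the e1 libraries and 4.46, 2.87 and 2.72 TPM in the parental libraries. The parental libraries were low, and the e2 range lay within that of e1, whose library 1 was low. It was higher than parental by 4.22 ± 0.21 (adjusted p = 1e-07) in e2 and 4.11 ± 0.21 (adjusted p = 1.39e-07) in e1. The e2 minus e1 difference, 0.11 ± 0.21 (adjusted p = 0.661), did not pass, and it changed sign without e1 library 1 (-0.15, adjusted p = 0.371). Col6a2 (chr10:76595756-76623630) was at 27.2, 28.2 and 28.3 TPM in the e2 libraries, 26.8, 48.2 and 49.8 TPM in the e1 libraries and 1.91, 1.37 and 1.39 TPM in the parental libraries. It was higher than parental by 3.50 ± 0.20 (adjusted p = 2.36e-07) in e2 and 4.01 ± 0.20 (adjusted p = 1.03e-07) in e1. Again e1 library 1 lay below the e2 libraries and the other e1 libraries above them. The difference of -0.51 ± 0.20 (adjusted p = 0.0476) for e2 against e1 lost its call in each of the 8 repeats that left out a library other than e1 library 1 (adjusted p = 0.0622 to 0.159). Without that library it was -0.79, adjusted p = 2.6e-05.

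Col6a3, the long α3 chain, ranged over 4.64 to 4.97 TPM in the e2 libraries, 3.10 to 4.83 TPM in the e1 libraries and 0.0128 to 0.0265 TPM in the parental libraries. Its log2 fold change was 2.51 ± 0.12 (adjusted p = 7.93e-08) for e2 against parental cells and 2.33 ± 0.12 (adjusted p = 1.57e-07) for e1 against parental cells, and 0.19 ± 0.12 (adjusted p = 0.209) for e2 against e1 did not pass. The alternative chains Col6a4 and Col6a5 were below 1 TPM in all libraries. Col6a1, Col6a2 and Col18a1 are neighbours on chromosome 10, and of these Col18a1 alone differed little between e1 and parental cells, at a log2 fold change of 0.29 ± 0.06.

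Col8a1 and Col7a1 represented the short-chain network and the anchoring fibril classes. Col8a1 (chr16:57624256-57754737), a short-chain collagen of vessel walls and the cornea, was at 65.0, 64.4 and 65.2 TPM in the e2 libraries, 49.2, 29.8 and 30.5 TPM in the e1 libraries and 30.3, 22.7 and 22.9 TPM in the parental libraries. The e2 libraries lay above all others, while e1 and parental overlapped. The log2 fold change was 1.34 ± 0.18 (adjusted p = 9.86e-05) for e2 against parental cells and 0.85 ± 0.18 (adjusted p = 0.00207) for e2 against e1. For e1 against parental it was 0.49 ± 0.18 (adjusted p = 0.0345), and 5 of the 9 repeats that each left out 1 library lost that call (adjusted p = 0.0502 to 0.11). It was 0.26, adjusted p = 0.0505 without e1 library 1, one of these 5. The others were parental libraries 2 and 3 (0.42 and 0.42) and e2 libraries 1 and 2 (0.49 each). Col8a2, which can pair with Col8a1, and Col10a1, a cartilage collagen, were below 1 TPM.

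Col7a1 (chr9:108953586-108984875), the anchoring fibril chain, was at 4.07, 4.20 and 4.69 TPM in the e2 libraries, 20.3, 10.4 and 11.2 TPM in the e1 libraries and 7.11, 7.17 and 7.17 TPM in the parental libraries. The groups did not overlap, with e1 above and e2 below parental, and e1 library 1 well above the other e1 libraries. Its log2 fold change of -0.62 ± 0.20 (adjusted p = 0.0184) for e2 against parental cells did not pass without parental library 1 (-0.62, adjusted p = 0.0506), e2 library 1 (-0.58, adjusted p = 0.056) or e2 library 2 (-0.60, adjusted p = 0.0505). For e1 against parental it was 0.82 ± 0.20 (adjusted p = 0.00452), and without e1 library 1 0.53, adjusted p = 8.15e-05. Between e2 and e1 it was -1.43 ± 0.20 (adjusted p = 0.000135).

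Of 9 FACIT genes 2 were tested, and both were higher than parental in each escape line. Col16a1 (chr4:130047817-130099277), which associates with fibrils and microfibrils, was at 27.0, 26.5 and 27.1 TPM in the e2 libraries, 11.1, 10.9 and 10.9 TPM in the e1 libraries and 1.04, 0.665 and 0.763 TPM in the parental libraries. The groups were apart in the order e2, e1, parental. It was higher than parental by 3.94 ± 0.08 (adjusted p = 2.66e-10) in e2 and 2.72 ± 0.08 (adjusted p = 2.52e-09) in e1, and higher in e2 than in e1 by 1.22 ± 0.08 (adjusted p = 9.61e-07). Col12a1, a fibril-surface collagen of tendon and tumor stroma, ranged over 1.41 to 1.62 TPM in the e2 libraries, 5.74 to 6.71 TPM in the e1 libraries and 0.0147 to 0.0456 TPM in the parental libraries. It had the reverse order of the escape lines, at 1.28 ± 0.08 (adjusted p = 3.34e-07) for e2 and 2.81 ± 0.08 (adjusted p = 1.69e-09) for e1 against parental cells and -1.53 ± 0.08 (adjusted p = 1.83e-07) for e2 against e1. The remaining FACIT genes, Col9a2, Col9a3, Col14a1, Col19a1, Col20a1 and Col22a1 together with Col9a1, listed at 0, stayed below 1 TPM.

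No transmembrane collagen reached 1 TPM in any library, so none was tested. The highest, Col17a1, the hemidesmosome collagen of basal epithelium, ranged over 0.489 to 0.675 TPM in the e2 libraries, 0.108 to 0.205 TPM in the e1 libraries and 0 to 0.0558 TPM in the parental libraries. Col23a1 followed with 0.302 to 0.436 TPM in the e2 libraries, 0.0702 to 0.147 TPM in the e1 libraries and 0 to 0.0127 TPM in the parental libraries. Col13a1, found at cell adhesions, was below 0.2 TPM in every library and Col25a1, a neuronal collagen, below 0.1 TPM. Among the genes of other structure, Col28a1, a von Willebrand domain collagen of nerve tissue, ranged over 1.42 to 1.62 TPM in the e2 libraries, 0.0181 to 0.0381 TPM in the e1 libraries and 0 to 0.0280 TPM in the parental libraries. It was higher in e2 than in parental cells by 1.33 ± 0.07 (adjusted p = 8.11e-08) and than in e1 cells by 1.31 ± 0.07 (adjusted p = 1.74e-07), and e1 against parental did not pass (0.02 ± 0.07, adjusted p = 0.818). Col26a1 was below 1 TPM throughout.

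Chains of one molecule were not present in fixed proportion. The ratio of Col1a1 to Col1a2 TPM was 0.422, 0.432 and 0.418 in the e2 libraries and 1.22, 0.728 and 0.751 in the e1 libraries, and no ratio exists for parental cells, where Col1a2 was at 0. Every e2 library had less Col1a1 than Col1a2, and e1 library 1 alone had more. For Col4a1 to Col4a2 the ratio was 1.82, 1.92 and 1.79 in the e2 libraries, 1.02, 1.09 and 1.07 in the e1 libraries and 1.33, 1.31 and 1.29 in the parental libraries. The groups did not overlap, with the ratio highest in e2 and nearest to 1 in e1. For Col6a1 to Col6a2 it was 2.79, 2.81 and 2.87 in the e2 libraries, 1.87, 1.83 and 1.74 in the e1 libraries and 2.33, 2.09 and 1.95 in the parental libraries. Here too the groups were apart, in the order e2, parental, e1. The e2 libraries alone held both Col5a1 and Col5a2 above 1 TPM, at a Col5a1 to Col5a2 ratio of 3.31, 3.21 and 3.10. Col6a1 exceeded Col6a3 by 15.3, 17.1 and 16.8 times in the e2 libraries and 16.2, 19.2 and 18.0 times in the e1 libraries. These ratios are of RNA levels and were not tested.

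**Figure D4:**
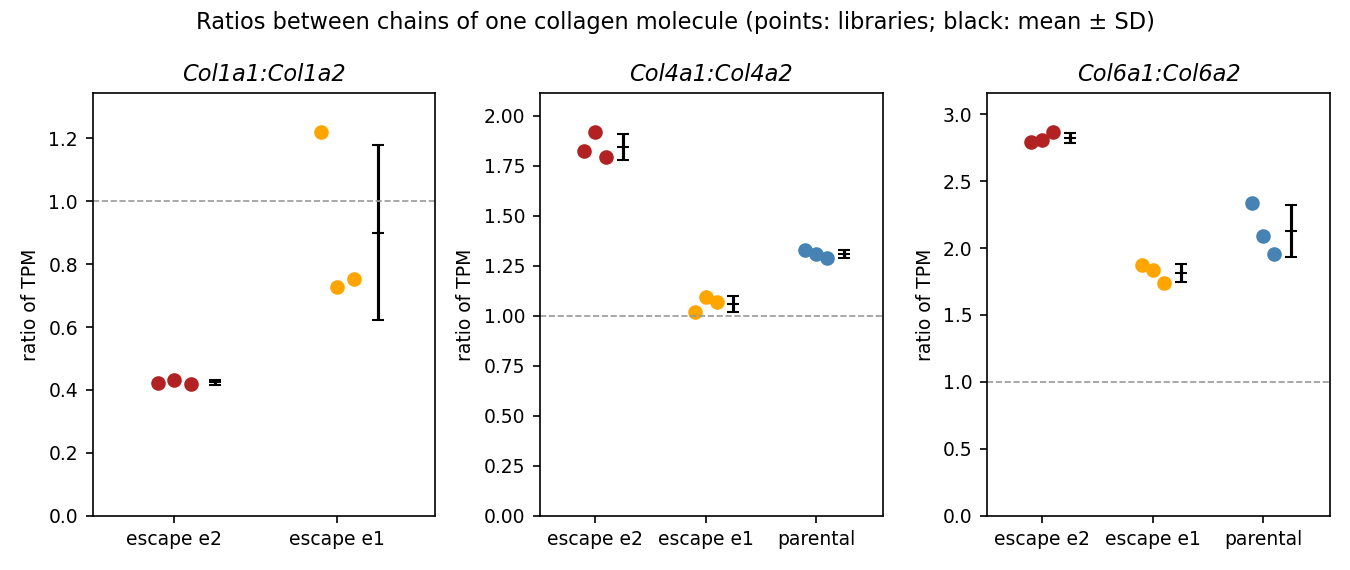
Ratio of TPM between chains of one collagen molecule, 1 point per library and a black bar for the mean ± SD (n = 3), with escape e2 left, then e1, then parental where both chains averaged at least 1 TPM, and a dashed line at a ratio of 1. The Col1a1 to Col1a2 ratio is 0.418 to 0.432 in e2 cells and 0.728 to 1.22 in e1 cells, and the Col4a1 to Col4a2 ratio separates all 3 groups.

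Collagen chains are hydroxylated, folded and exported by dedicated proteins, trimmed outside the cell and then cross-linked. Of 62 such genes in 7 lists, together with receptors and proteases, 53 were tested. In e2 against parental cells 40 were higher, 10 lower and 3 did not pass, beside 40.8% higher and 32.7% lower among all genes. In e1 against parental cells 38 were higher, 10 lower and 5 did not pass, beside 35.7% and 34.9%. Between e2 and e1, 23 were higher in e2, 17 lower and 13 did not pass, beside 40.6% and 29.7%. Of the 53, 20 had no parental library at 1 TPM, so they entered the test through the escape cells and could hardly have been lower there, and 3 had no escape library at 1 TPM and could hardly have been higher. The 20 include 3 propeptide removal genes, 3 lysyl oxidases, 5 proteoglycans, 4 receptors and 3 proteases. The others are P3h3 of prolyl and lysyl modification and Creb3l1 of folding and export. Counts of higher genes among the 20 are no support for a direction. The remaining 33 had 20 higher, 10 lower and 3 that did not pass in e2 against parental cells, with the same counts in e1. These 33 include the 3 with no escape library at 1 TPM (Itga1, Mmp13 and Mmp15), whose lower calls are no support for a direction. Some genes, such as Tll1, Dcn, Mmp2 and Ctsk, entered through the e2 libraries alone and could hardly have been lower in e2 than in e1. Itga11 entered through the e1 libraries alone. The shares of all genes given here also stand beside the counts of each list below. Over all 53 the median log2 fold changes were 0.92 for e2 and 0.94 for e1 against parental, and 0.17 for e2 against e1, where all tested genes had 0.07, 0.02 and 0.09 in that order. These medians include Lox, Dcn, Fmod, Ogn and Prelp, 5 genes listed at 0 in the parental libraries, whose fitted values depend on the pseudocount. Without these 5 genes the medians were 0.70 for e2 and 0.68 for e1 against parental, and 0.19 for e2 against e1.

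**Figure D5:**
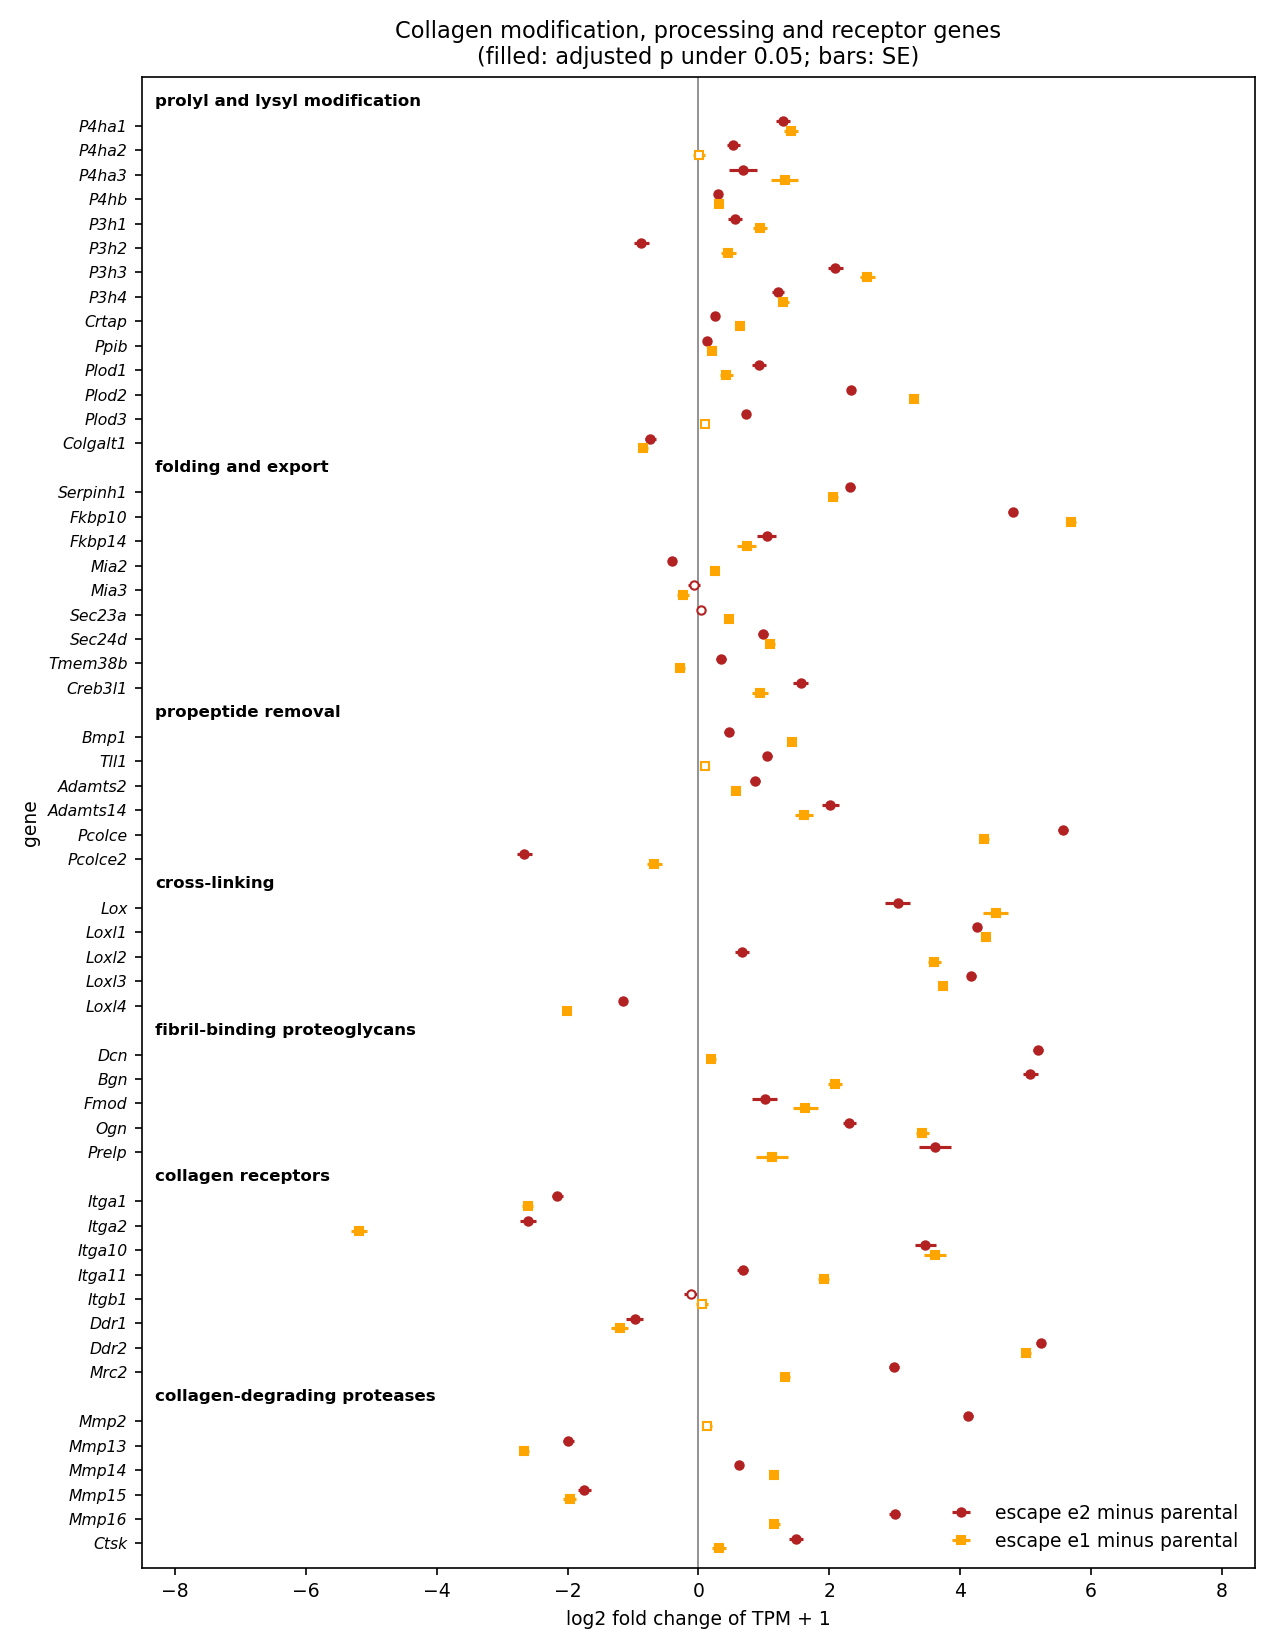
Log2 fold change on the log2(TPM + 1) scale of the tested genes of the 7 lists of collagen modification, processing, receptor and protease genes, in e2 against parental (circles) and e1 against parental (squares), with bars of 1 SE and filled points at an adjusted p under 0.05. Fkbp10, Pcolce and Ddr2 stand far above 0 and Itga2 far below 0 in both lines. Genes listed at 0 in parental cells (Lox, Dcn, Fmod, Ogn and Prelp) have points that depend on the pseudocount.

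Among 14 tested genes of prolyl and lysyl modification, 12 were higher and 2 lower in e2 than in parental cells, and 11 were higher, 1 lower and 2 did not pass in e1. Over all tested genes 40.8% were higher and 32.7% lower in e2, and 35.7% and 34.9% in e1. Between e2 and e1, 3 were higher in e2, 6 lower and 5 did not pass. Plod2, the lysyl hydroxylase of the telopeptides where fibers are cross-linked, averaged 28.5 ± 0.722 TPM in e2 cells, 56.4 ± 0.805 TPM in e1 cells and 4.86 ± 0.249 TPM in parental cells (SD, n = 3 each). Its log2 fold change was 2.33 ± 0.05 (adjusted p = 4.96e-10) for e2 and 3.29 ± 0.05 (adjusted p = 7.56e-11) for e1 against parental, and -0.96 ± 0.05 (adjusted p = 3.15e-07) for e2 against e1. P3h3, a prolyl 3-hydroxylase family member, averaged 6.44 ± 0.357 TPM in e2 cells, 9.53 ± 1.61 TPM in e1 cells and 0.744 ± 0.0781 TPM in parental cells, and P4ha1, a catalytic subunit of prolyl 4-hydroxylase, averaged 29.9 ± 0.0299 TPM in e2 cells, 32.8 ± 4.48 TPM in e1 cells and 11.7 ± 1.41 TPM in parental cells. Both were higher than parental in each line, but P3h3 had no parental library at 1 TPM and could hardly have been lower in escape cells. Colgalt1, which adds galactose to hydroxylysine, averaged 109.5 ± 1.28 TPM in e2 cells, 101 ± 11.1 TPM in e1 cells and 183 ± 11.4 TPM in parental cells and fell in both lines (-0.73 ± 0.08 for e2, adjusted p = 2.02e-05, and -0.85 ± 0.08 for e1, adjusted p = 7.6e-06). P3h2, which modifies type IV collagen, averaged 2.87 ± 0.353 TPM in e2 cells, 8.73 ± 1.24 TPM in e1 cells and 6.08 ± 0.599 TPM in parental cells. It was lower in e2 than in parental cells (-0.87 ± 0.11, adjusted p = 7.7e-05) and than in e1 cells (-1.33 ± 0.11, adjusted p = 5.19e-06). In e1 against parental cells it was higher (0.45 ± 0.11, adjusted p = 0.00512).

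Folding and export genes, all 9 tested, included 6 higher, 1 lower and 2 not passing in e2 against parental cells, 7 higher and 2 lower in e1 against parental cells, and 3 higher, 3 lower and 3 not passing in e2 against e1. One of the 2 lower in e1, the export receptor gene Mia3, lost its call in 8 of the 9 repeats that left out 1 library (-0.24 ± 0.09, adjusted p = 0.041; adjusted p = 0.0503 to 0.151 in those 8). Serpinh1 encodes HSP47, the chaperone specific to procollagen, and was at 493, 485 and 477 TPM in the e2 libraries, 437, 388 and 392 TPM in the e1 libraries and 105, 93.7 and 91.0 TPM in the parental libraries. Every escape library was far above the parental ones, with 2.32 ± 0.07 (adjusted p = 2.29e-09) in e2 and 2.06 ± 0.07 (adjusted p = 5.09e-09) in e1. Fkbp10, a prolyl isomerase that acts with it, was at 54.9, 52.2 and 56.9 TPM in the e2 libraries, 108, 97.9 and 101 TPM in the e1 libraries and 0.889, 0.927 and 1.18 TPM in the parental libraries. It was higher than parental by 4.80 ± 0.07 (adjusted p = 4.39e-11) in e2 and 5.69 ± 0.07 (adjusted p = 1.82e-11) in e1, and lower in e2 than in e1 (-0.89 ± 0.07, adjusted p = 3.4e-06). Mia2, of a family of collagen export receptors, averaged 41.9 ± 0.520 TPM in e2 cells, 67.3 ± 4.33 TPM in e1 cells and 56.1 ± 2.37 TPM in parental cells. It was lower than parental in e2 (-0.41 ± 0.06, adjusted p = 0.00016) and higher in e1 (0.26 ± 0.06, adjusted p = 0.00337). Creb3l1, a transcription factor that acts on collagen genes, averaged 4.15 ± 0.0799 TPM in e2 cells, 2.38 ± 0.601 TPM in e1 cells and 0.746 ± 0.0963 TPM in parental cells. Its log2 fold change against parental cells was 1.56 ± 0.12 (adjusted p = 1.72e-06) for e2 and 0.94 ± 0.12 (adjusted p = 6.96e-05) for e1. Creb3l1 had no parental library at 1 TPM and could hardly have been lower in escape cells.

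Propeptide removal was represented by 6 tested genes, of which 5 were higher and 1 lower in e2 than in parental cells, and 4 higher, 1 lower and 1 not passing in e1. Against e1, e2 cells had 4 higher and 2 lower. Of the 6, 3 had no parental library at 1 TPM, and the other 3 had 2 higher and 1 lower than parental in each line. Pcolce, which enhances cleavage of the procollagen C-terminus, was at 925, 907 and 942 TPM in the e2 libraries, 353, 427 and 423 TPM in the e1 libraries and 19.6, 18.3 and 17.5 TPM in the parental libraries. The groups did not overlap, and the log2 fold change was 5.57 ± 0.08 (adjusted p = 3.04e-11) for e2 and 4.37 ± 0.08 (adjusted p = 1.22e-10) for e1 against parental cells, and 1.21 ± 0.08 (adjusted p = 7.88e-07) between e2 and e1. Its relative Pcolce2 ran opposite, averaging 7.03 ± 0.710 TPM in e2 cells, 31.0 ± 4.80 TPM in e1 cells and 49.8 ± 4.97 TPM in parental cells, with -2.66 ± 0.12 (adjusted p = 3.32e-08) for e2 and -0.67 ± 0.12 (adjusted p = 0.000578) for e1. Bmp1, the procollagen C-proteinase itself, averaged 31.9 ± 0.813 TPM in e2 cells, 63.3 ± 3.56 TPM in e1 cells and 23.0 ± 1.47 TPM in parental cells. It was higher than parental in e2 (0.46 ± 0.06, adjusted p = 0.000128) and in e1 (1.42 ± 0.06, adjusted p = 4.66e-08). Adamts14, an N-proteinase, averaged 3.13 ± 0.148 TPM in e2 cells, 2.17 ± 0.680 TPM in e1 cells and 0.0210 ± 0.0135 TPM in parental cells, higher than parental by 2.02 ± 0.13 (adjusted p = 6.29e-07) in e2 and 1.61 ± 0.13 (adjusted p = 3.38e-06) in e1.

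All 5 lysyl oxidases, which cross-link collagen and elastin, were tested, and in each escape line 4 were higher and 1 lower than parental. In e2 against e1, 2 were higher, 2 lower and 1 did not pass. Of the 5, 3 had no parental library at 1 TPM, and the other 2 had 1 higher and 1 lower than parental in each line. Lox was at 7.60, 7.14 and 7.00 TPM in the e2 libraries and 33.0, 18.7 and 18.0 TPM in the e1 libraries, and listed at 0 in the parental libraries. Loxl2 was at 16.5, 17.6 and 17.0 TPM in the e2 libraries, 165, 125 and 125 TPM in the e1 libraries and 9.83, 10.5 and 10.8 TPM in the parental libraries. The e1 libraries were far above the rest, with 3.60 ± 0.10 (adjusted p = 1.79e-09) against parental cells, and e2 was below e1 (-2.94 ± 0.10, adjusted p = 1.62e-08). Loxl1 averaged 26.0 ± 0.913 TPM in e2 cells, 29.0 ± 0.632 TPM in e1 cells and 0.419 ± 0.0562 TPM in parental cells and Loxl3 23.0 ± 0.0725 TPM in e2 cells, 16.7 ± 1.17 TPM in e1 cells and 0.334 ± 0.0544 TPM in parental cells. Loxl4 averaged 14.8 ± 0.338 TPM in e2 cells, 7.76 ± 0.0903 TPM in e1 cells and 34.3 ± 1.85 TPM in parental cells and fell in both lines (-1.16 ± 0.06 for e2, adjusted p = 7.82e-08, and -2.01 ± 0.06 for e1, adjusted p = 1.96e-09).

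The fibril-binding proteoglycans regulate fibril width and spacing. All 5 tested were higher than parental in both lines. None of them had a parental library at 1 TPM, so they could hardly have been lower in escape cells. In the parental libraries 4 of them (Dcn, Fmod, Ogn and Prelp) were listed at 0. Dcn entered the test through the e2 libraries alone, and limma called it higher in e1 at an adjusted p of 0.0366. In e2 against e1, 3 were higher and 2 lower. Dcn, decorin, was at 36.3, 35.5 and 34.6 TPM in the e2 libraries and 0.127, 0.227 and 0.0897 TPM in the e1 libraries. Bgn, biglycan, was at 51.2, 50.8 and 52.8 TPM in the e2 libraries, 6.97, 5.30 and 4.87 TPM in the e1 libraries and 0.655, 0.506 and 0.530 TPM in the parental libraries, with 5.07 ± 0.11 (adjusted p = 3.4e-10) for e2 against parental cells and 2.98 ± 0.11 (adjusted p = 2.29e-08) for e2 against e1. Ogn had the opposite order, at 3.65 to 4.14 TPM in e2 cells and 8.18 to 10.7 TPM in e1 cells. Dcn is also on the fibroblast marker list.

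Among collagen receptors, Itga1, Itga2 and Ddr1 fell in both escape lines while Itga10 and Ddr2 rose. Of 8 tested, 4 were higher, 3 lower and 1 did not pass in e2 against parental cells, with the same counts in e1. In e2 against e1, 4 were higher, 1 lower and 3 did not pass. The 4 higher than parental had no parental library at 1 TPM and entered the test through escape cells. Of the other 4, 0 were higher, 3 lower and 1 did not pass in each line. Among these 3, Itga1 had no escape library at 1 TPM. It entered the test through parental cells and could hardly have been higher in escape cells. Itga2, the integrin chain through which epithelia and platelets bind collagen, was at 9.22, 7.40 and 7.88 TPM in the e2 libraries, 0.730, 0.477 and 0.363 TPM in the e1 libraries and 62.1, 49.2 and 52.5 TPM in the parental libraries. The parental libraries were far above the rest and the e1 libraries lowest, with -2.60 ± 0.12 (adjusted p = 5.04e-08) for e2 and -5.19 ± 0.12 (adjusted p = 5.64e-10) for e1 against parental cells. Itga1 averaged 0.877 ± 0.103 TPM in e2 cells, 0.370 ± 0.0681 TPM in e1 cells and 7.37 ± 0.371 TPM in parental cells and fell likewise (-2.16 ± 0.08 for e2, adjusted p = 1.02e-08, and -2.61 ± 0.08 for e1, adjusted p = 3.07e-09). Itga10, a chain known from cartilage, averaged 13.4 ± 0.0521 TPM in e2 cells, 15.3 ± 3.98 TPM in e1 cells and 0.304 ± 0.105 TPM in parental cells, with 3.47 ± 0.16 (adjusted p = 5.49e-08) for e2 and 3.62 ± 0.16 (adjusted p = 4.72e-08) for e1. Of the discoidin domain receptors, tyrosine kinases that bind collagen, Ddr1 averaged 32.7 ± 0.919 TPM in e2 cells, 28.3 ± 6.10 TPM in e1 cells and 65.4 ± 2.93 TPM in parental cells and was lower in both lines (-0.98 ± 0.13 for e2, adjusted p = 0.000112, and -1.20 ± 0.13 for e1, adjusted p = 2.73e-05). Ddr2 was at 38.0, 38.3 and 37.6 TPM in the e2 libraries, 35.9, 31.2 and 30.9 TPM in the e1 libraries and 0.0650, 0.0140 and 0.0430 TPM in the parental libraries. Parental libraries held almost none, and the log2 fold change was 5.23 ± 0.07 (adjusted p = 2.45e-11) for e2 and 5.01 ± 0.07 (adjusted p = 3.02e-11) for e1. Mrc2, an endocytic collagen receptor, ranged over 6.69 to 7.43 TPM in the e2 libraries, 1.41 to 1.66 TPM in the e1 libraries and 0 to 0.0104 TPM in the parental libraries.

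Of 6 tested collagen-degrading proteases, 4 were higher and 2 lower in e2 than in parental cells, and 3 higher, 2 lower and 1 not passing in e1. In e2 against e1, 4 were higher, 1 lower and 1 did not pass. Of the 6, 3 had no parental library at 1 TPM, and the other 3 had 1 higher and 2 lower than parental in each line. Those 2 lower genes, Mmp13 and Mmp15, had no escape library at 1 TPM. They entered the test through parental cells and could hardly have been higher in escape cells. Mmp2, a gelatinase that cuts type IV and denatured collagen, was at 16.5, 16.7 and 17.1 TPM in the e2 libraries, 0.179, 0.107 and 0.0760 TPM in the e1 libraries and 0.0203, 0.0196 and 0.0241 TPM in the parental libraries. It exceeded 1 TPM in e2 cells alone, with 4.12 ± 0.07 (adjusted p = 8.03e-11) against parental cells and 3.99 ± 0.07 (adjusted p = 3.55e-10) against e1. Mmp14, the membrane protease that activates it and cuts fibrils, averaged 67.3 ± 1.44 TPM in e2 cells, 98.2 ± 2.42 TPM in e1 cells and 43.6 ± 2.20 TPM in parental cells and was higher in both lines (0.61 ± 0.05 for e2, adjusted p = 3.81e-06, and 1.15 ± 0.05 for e1, adjusted p = 4.92e-08). Mmp16 averaged 7.33 ± 0.285 TPM in e2 cells, 1.33 ± 0.171 TPM in e1 cells and 0.0432 ± 0.0299 TPM in parental cells. Mmp13, a collagenase, ranged over 0.556 to 0.723 TPM in the e2 libraries, 0 to 0.0294 TPM in the e1 libraries and 5.02 to 5.83 TPM in the parental libraries and fell in both lines (-1.99 ± 0.08 for e2, adjusted p = 1.69e-08, and -2.66 ± 0.08 for e1, adjusted p = 2.61e-09).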

How the data were processed

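RNA of mouse pancreatic tumor cells was sequenced in 9 libraries, grouped by the sample titles. The authors deposited TPM per gene and library, plus a matrix of rlog values, a regularised log2 transform. Salmon, DESeq2 and mm10 are named per the submitters' processing notes; the sources used here state neither their versions nor the annotation or strand setting. The deposited TPM carry no depth, hence no counting error or detection limit.

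From these values log2(TPM + 1) was computed, and the 12769 of 24493 genes with at least 3 of 9 libraries at or above 1 TPM were kept. A model with 3 group means was fitted to all 9 libraries with limma 3.58.1 (R 4.3.3), using empirical Bayes with the trend and robust options. Two-sided p-values were Benjamini-Hochberg adjusted over all tested genes. The procedure was tested on simulated data. The collagen members and all gene lists were chosen with earlier results of these data known. Collagens at a group mean of 10 TPM are given in every library and those at 1 TPM by range. Of each list, called genes with the largest changes, up to 3 per direction and comparison, could be named, and fewer were; Dcn and Pdgfrb also serve as cell markers. One marker of the immune list is not reported here. Promoters and gene positions are from RefSeq (GRCm38.p6) and exons from GENCODE M21. Alternatives were a pseudocount of 0.1 TPM, median-ratio scaling, a minimum of 5 TPM or none, the table without its 10 highest genes, the rlog table, 2 groups only, a replicate block, no trend or robust step, each library left out, and, chosen after seeing the data, parental library 1 and e1 library 1 left out together.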

Additional observations from a re-analysis of the deposited data

Results flagged for a closer look

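The escape lines were called different from each other in 18 of the 21 tested collagens. Where that call holds, their changes against the shared parental libraries were unequal. For Col3a1, Col11a1 and Col6a2 the e2 and e1 libraries overlapped, and most repeats that left out 1 library lost the call. In such repeats 15 to 18 collagens were called. The test of the difference is limma's contrast of e2 minus e1, and 70.3% of all tested genes passed it. Col5a2, Col15a1 and Col28a1 passed the filter of 1 TPM through the e2 libraries alone, so their higher calls are no support for a direction. On the log2(TPM + 1) scale the values higher in e2 than in e1 were Col5a2 2.97, Col18a1 1.96, Col4a1 1.63, Col15a1 1.34, Col28a1 1.31, Col16a1 1.22, Col4a5 1.11, Col5a3 0.97, Col8a1 0.85, Col4a2 0.84 and Col11a1 0.36. The values lower in e2 than in e1 were Col12a1 -1.53, Col1a1 -1.52, Col7a1 -1.43, Col5a1 -0.53, Col6a2 -0.51, Col1a2 -0.49 and Col3a1 -0.46. Escape e1 library 1, which stood apart from the other e1 libraries, carried the highest or the lowest e1 value of every tested collagen except Col28a1. Among these it was highest for Col1a1, Col7a1 and Col8a1 and lowest for Col3a1, Col6a1 and Col6a2.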

How the results depend on the processing

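Of 63 collagen fold changes (21 genes in 3 comparisons), 56 kept their direction and their side of the threshold in every alternative. The exceptions, named beside their values, were Col7a1 for e2 against parental cells, Col8a1 and Col15a1 for e1 against parental cells, and Col3a1, Col11a1, Col6a1 and Col6a2 for e2 against e1. Col6a1 ranged from -0.15 to 0.25 with 1 library left out, changed sign at -0.15 without e1 library 1 (adjusted p = 0.371), and at -0.15 without that library and parental library 1 (adjusted p = 0.00605); the cause was not tested. Over the alternatives the adjusted p ran from 8.95e-06 to 0.056 for Col7a1, 2.95e-06 to 0.11 for Col8a1, 0.00289 to 0.332 for Col15a1, 4.66e-08 to 0.141 for Col3a1, 5.27e-05 to 0.155 for Col11a1, 0.00605 to 0.957 for Col6a1 and 4.79e-08 to 0.159 for Col6a2. Leaving out 1 library at a time, 19 to 20 collagens were called for e2 against parental cells, 18 to 19 for e1 against parental cells and 15 to 18 for e2 against e1. Same-numbered libraries deviated together by correlations of -0.13 to 0.05, and libraries of unlike number by -0.161 to 0.127. No pairing by number was seen, but such values cannot show how the libraries were prepared. With the replicate block, 20, 19 and 17 collagens were called in these comparisons, and Col6a2 lost its call for e2 against e1 (-0.51, adjusted p = 0.0665). Of 96 fold changes of the named modification, processing, receptor and protease genes, 90 kept their direction and their side of the threshold in every alternative. The other 6 kept their direction and lost their call in some, with an adjusted p of up to 0.151 for Mia3 and 0.0935 for Ctsk in e1 against parental cells, and up to 0.0734 for P4ha3, 0.117 for Serpinh1 (under median-ratio scaling and in the rlog values), 0.0788 for Adamts14 and 0.0552 for Fmod in e2 against e1. The replicate block was among the alternatives that ended the calls of Mia3 (adjusted p = 0.0679) and Ctsk (adjusted p = 0.0503). Removing the 10 highest genes moved the median of all genes for e2 against e1 to 0.14, against 0.09. Depth is unknown, and values of genes near 0 rest on the pseudocount.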
